A study of Mus musculus with 16 samples.

Results

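The ligands of the tumour necrosis factor (TNF) superfamily were followed in mouse macrophages derived from bone marrow, phagocytes of the innate immune system. The 9 members were Tnf, Tnfsf9, Tnfsf15, Tnfsf10, Tnfsf13b, Ltb, Tnfsf14, Tnfsf4 and Tnfsf8. They were chosen by the gene symbol that the array platform assigns to a probe set (a group of probes for 1 transcript), taking the brightest probe set of a gene. All 9 were found, each with 1 probe set, among 19937 genes measured. The 16 arrays formed 4 groups of 4: NFAT5 KO cells with LPS, wild-type (WT) cells with LPS, unstimulated NFAT5 KO cells and unstimulated WT cells, all on the 129sv background. NFAT5 is the transcription factor of the cellular response to high salt, and LPS, a surface molecule of Gram-negative bacteria, activates macrophages through Toll-like receptors. The labels give neither the LPS dose and time nor the kind of KO allele or the age of the mice, and they do not tell whether the 4 arrays of each group stem from different mice or cultures. The p-values therefore reflect spread among these arrays alone, and that spread may be technical. Only for the KO groups do sex-linked transcripts, given below, show arrays of both sexes and so of more than 1 mouse.

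TNF superfamily ligands are made as membrane proteins that form trimers, and several are also cut from the surface and act as soluble cytokines. Many of their receptors act through TRAF adaptors, which lead to NF-kB and survival or costimulatory signals. Some carry a death domain that can lead to apoptosis or necroptosis. Macrophages are a major source of Tnf after contact with bacteria, and other ligands of the family address T cells, B cells and stromal cells.

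Levels are log2 values after robust multi-array averaging (RMA), so a difference of 1 is 2-fold, and a dim gene's fold change is understated. The median over all probe sets was 6.76 to 6.86 per array. The macrophage markers fitted the label: all 8 measured ones averaged 8.98 or more in every group, whereas the 4 measured B cell markers and the 4 NK cell markers averaged at most 6.93 and 5.29. Of 7 T cell markers, 3 averaged above 7 in unstimulated cells of each genotype. With LPS 2 did in KO cells and 1 in WT cells. Cd28 stood at 10.23 in unstimulated KO cells and 9.98 in unstimulated WT cells, while Cd3e averaged at most 7.38 in any group. Other lists were not all low either. Among 5 stromal markers, 3 averaged above 7 in every group, with Col1a1 the brightest at up to 8.11. In WT cells with LPS the dendritic cell marker Itgax averaged 11.39 and the neutrophil marker Camp 7.62. The 5 mast cell markers averaged at most 6.15. Nfat5 averaged 9.09 in KO cells with LPS against 10.07 in WT cells with LPS, and 9.04 in unstimulated KO cells against 9.39 in unstimulated WT cells; the difference was called with LPS (-0.98) and not without it (-0.36). The part of the transcript that its probes read was not checked against the deleted part. Xist and the Y-linked Kdm5d marked KO arrays 1 to 3 of both treatments as male and the other 10 arrays as female, so genotype and sex largely coincide, and their parts in a genotype difference cannot be told apart with these samples except through the KO arrays numbered 4.

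Promoter sequences were available from RefSeq (build GRCm38.p6) for 7 of the 9 ligands. Those of 3 are shown here because they belong to the ligand with the largest rise (Tnf), to its immediate neighbour on chromosome 17 that was not called for LPS (Ltb), and to the ligand whose LPS response differed between genotypes (Tnfsf10). Each run is the 250 bases before the transcription start, 5′ to 3′ in the direction of the gene, and capitals mark motif matches on either strand.
Tnf, chr17:35202008-35202257, minus strand: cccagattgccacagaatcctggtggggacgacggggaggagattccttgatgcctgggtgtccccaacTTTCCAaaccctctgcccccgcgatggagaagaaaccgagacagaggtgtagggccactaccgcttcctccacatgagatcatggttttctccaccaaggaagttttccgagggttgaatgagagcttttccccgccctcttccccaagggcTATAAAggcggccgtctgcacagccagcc
Ltb, chr17:35194257-35194506, plus strand: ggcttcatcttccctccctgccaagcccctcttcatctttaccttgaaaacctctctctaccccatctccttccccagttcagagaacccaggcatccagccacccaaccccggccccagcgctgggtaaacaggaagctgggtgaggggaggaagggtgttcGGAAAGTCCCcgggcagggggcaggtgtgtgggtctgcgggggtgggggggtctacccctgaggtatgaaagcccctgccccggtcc
Tnfsf10, chr3:27316827-27317076, plus strand: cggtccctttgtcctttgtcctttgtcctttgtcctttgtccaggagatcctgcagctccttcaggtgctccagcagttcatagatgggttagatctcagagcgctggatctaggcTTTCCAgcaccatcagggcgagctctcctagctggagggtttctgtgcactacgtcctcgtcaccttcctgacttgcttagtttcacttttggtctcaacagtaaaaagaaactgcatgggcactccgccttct
Both strands were searched for the TATA box as TATAAA. The core of the tonicity element bound by NFAT5 was searched as TGGAAA. The interferon-stimulated response element and the NF-kB site were searched by their consensus. Tnf held TATAAA, 29 to 24 bases before the start, and TGGAAA on the minus strand, 181 to 176 bases before it. Ltb held a match to the NF-kB consensus, GGAAAGTCCC, on the minus strand, 87 to 78 bases before the start. Tnfsf10 held TGGAAA on the minus strand, 134 to 129 bases before it. The matches did not overlap each other. Among 32851 RefSeq promoter windows of the same length, 12.4% held the TATA box, 18.6% the tonicity core, 2.98% the interferon-stimulated response element and 3.9% the NF-kB consensus. Among the ligands whose promoters are not printed, Tnfsf14 held the tonicity core and Tnfsf13b, at the second of its starts, the interferon-stimulated response element. A match is a description of letters and no match says only that these letters were not in this window.

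LPS raised 4 of the 9 ligands and lowered 1, the same 5 in both genotypes. Tnf, Tnfsf9, Tnfsf15 and Tnfsf10 rose and Tnfsf13b fell, and Ltb, Tnfsf14, Tnfsf4 and Tnfsf8 were not called. A call is an adjusted p under 0.05 in limma with Benjamini-Hochberg adjustment over all 19937 genes. In KO cells 12.0% of all genes rose and 12.7% fell by that rule, 24.7% in all. In WT cells 14.0% rose and 16.8% fell, 30.8% in all. The median log2 change of the 9 ligands was 0.09 in KO cells and 0.25 in WT cells, against 0.01 and 0.06 over all genes. All 5 called ligands also had no overlap between arrays with and without LPS, which held for 24.8% of all genes in KO cells and 32.3% in WT cells.

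Tnf encodes the founding cytokine of the family, which activates endothelium and leukocytes through the receptors Tnfrsf1a and Tnfrsf1b. With LPS its level was 13.11, 13.31, 13.20 and 13.09 in KO arrays 1 to 4, against 9.29, 9.48, 9.24 and 9.41 in unstimulated KO arrays. In WT cells it was 13.28, 13.39, 13.63 and 13.33 with LPS, against 9.39, 9.30, 9.44 and 9.47 unstimulated. Every array with LPS lay more than 3 log2 units above every unstimulated array. The rise was 3.82 ± 0.0931 (SE) in KO cells, 14.1-fold, and 4.01 ± 0.0931 in WT cells, 16.1-fold (limma adjusted p = 3.88e-15 and 1.64e-15). By p-value Tnf ranked 3 of 19937 genes in each genotype.

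Tnfsf9, the CD137 ligand, is a membrane protein of activated antigen-presenting cells that costimulates T cells through Tnfrsf9. Its levels with LPS were 9.79, 9.84, 9.74 and 10.09 in KO arrays, against 6.24, 6.69, 6.07 and 6.30 unstimulated. In WT arrays they were 10.39, 10.26, 9.82 and 10.19 with LPS, against 6.63, 6.66, 6.44 and 6.81 unstimulated. The groups with and without LPS were apart by 3 log2 units or more in both genotypes. The rise was 3.54 ± 0.137 (SE) in KO cells and 3.53 ± 0.137 in WT cells, 11.6-fold and 11.5-fold (limma adjusted p = 2.36e-12 and 1.26e-12).

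Tnfsf15 encodes TL1A, a cytokine of myeloid and endothelial cells that costimulates T cells through the death-domain receptor Tnfrsf25. With LPS the KO arrays stood at 8.51, 8.97, 8.30 and 8.34, against 7.15, 7.66, 7.48 and 6.62 unstimulated. The WT arrays stood at 9.26, 9.03, 9.09 and 8.94 with LPS, against 7.47, 7.39, 7.34 and 6.66 unstimulated. No array with LPS overlapped the unstimulated ones, and among unstimulated arrays number 4 was the lowest in both genotypes. The rise was 1.30 ± 0.208 (SE) in KO cells, 2.47-fold, and 1.86 ± 0.208 in WT cells, 3.64-fold (limma adjusted p = 8.61e-05 and 1.03e-06).

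Tnfsf10, or TRAIL, can trigger death of sensitive target cells through Tnfrsf10b and is known as an interferon-inducible gene. With LPS its levels were 9.10, 9.40, 9.46 and 9.65 in KO arrays, against 5.17, 6.10, 6.10 and 6.31 in unstimulated KO arrays. In WT arrays they were 8.92, 8.37, 8.93 and 8.97 with LPS, against 7.64, 6.88, 6.82 and 6.77 unstimulated. Both genotypes separated fully by treatment. The rise was 3.48 ± 0.228 (SE) in KO cells, 11.2-fold, and 1.77 ± 0.228 in WT cells, 3.40-fold (limma adjusted p = 1.57e-09 and 5.86e-06).

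Tnfsf13b, or BAFF, is a survival factor for B cells that acts through Tnfrsf13b, Tnfrsf13c and Tnfrsf17. Its levels with LPS were 6.06, 6.39, 6.21 and 6.46 in KO arrays, against 6.85, 6.94, 6.999 and 6.95 unstimulated. In WT arrays they were 6.46, 6.26, 6.30 and 6.62 with LPS, against 6.72, 6.94, 6.87 and 7.21 unstimulated. It fell by 0.66 in KO cells, 1.58-fold, and fell by 0.52 in WT cells, 1.43-fold (SE 0.115 each, limma adjusted p = 0.000221 and 0.00151). The groups did not overlap, but in WT cells the highest LPS array and the lowest unstimulated array were 6.62 and 6.72.

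**Figure D1:**
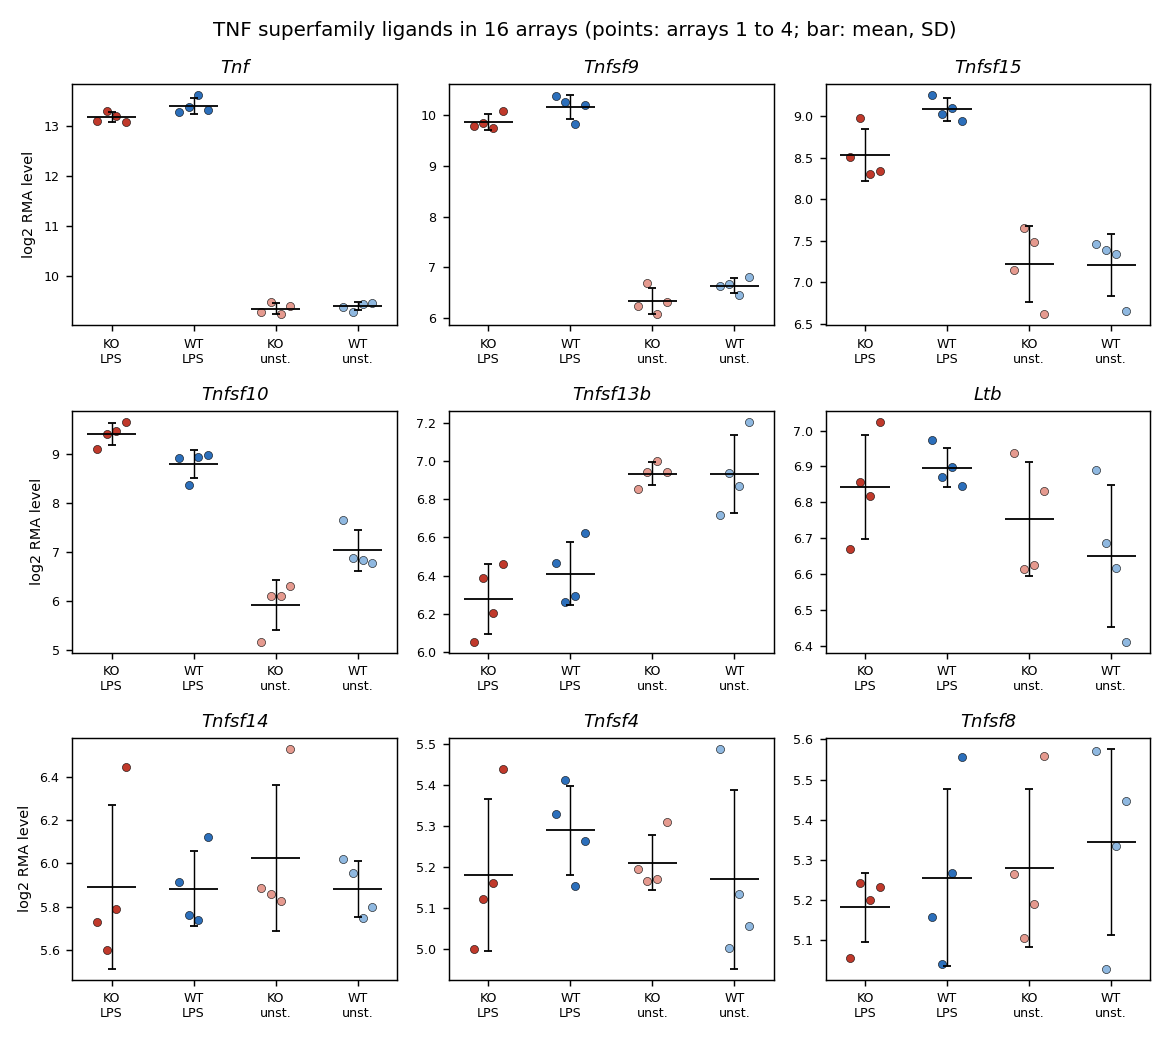
Log2 RMA level of the 9 ligands in each of 16 arrays. Points are arrays 1 to 4 of a group in that order, the horizontal bar is the group mean and the error bar its SD; each panel has its own vertical scale, which does not start at 0. Tnf, Tnfsf9, Tnfsf15, Tnfsf10 and Tnfsf13b separate by LPS treatment, and Tnfsf10 also separates KO from WT arrays within each treatment.

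The other 4 ligands stayed between 4.999 and 7.02 in all 16 arrays. Ltb, the membrane anchor of the lymphotoxin heterotrimer, averaged 6.84 ± 0.15 in KO cells with LPS against 6.75 ± 0.16 in unstimulated KO cells (SD, n = 4), and 6.90 ± 0.05 in WT cells with LPS against 6.65 ± 0.20 in unstimulated WT cells. Its LPS change in WT cells was 0.25 (95% interval 0.02 to 0.47, limma adjusted p = 0.0982), and without unstimulated WT array 1 it was 0.33 and was called (adjusted p = 0.0283). Tnfsf14, or LIGHT, ranged from 5.60 to 6.53, and its 2 highest arrays were the KO arrays numbered 4, at 6.53 unstimulated and 6.44 with LPS. Tnfsf4, the OX40 ligand, ranged from 4.999 to 5.49, and Tnfsf8, the CD30 ligand, from 5.03 to 5.57. For these 3 ligands the LPS changes in the 2 genotypes lay between -0.13 and 0.12, with intervals that reached at most 0.50 from 0 and adjusted p of 0.471 or more. The files hold no detection calls, so such levels do not show that a transcript was present.

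**Figure D2:**
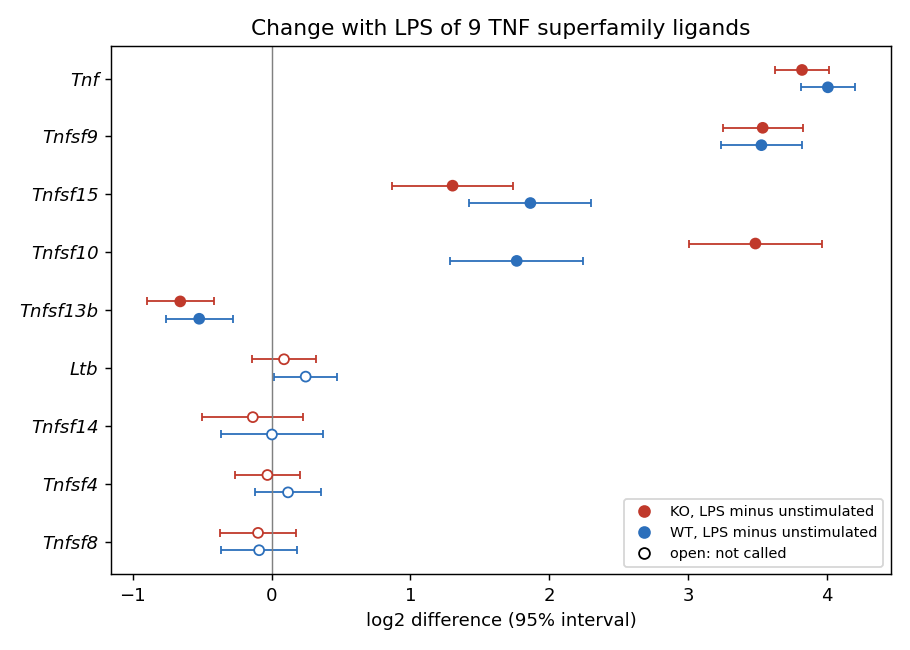
Log2 change with LPS of each ligand in KO cells (red, upper of each pair) and WT cells (blue, lower), with 95% intervals from the limma fit; filled points were called and open points were not. The intervals of Tnfsf10 in KO cells (3.004 to 3.96) and WT cells (1.29 to 2.24) do not meet, whereas those of Tnf and Tnfsf9 overlap.

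Ligand genes that lie side by side in the genome did not all share a call with LPS. In the RefSeq table of GRCm38.p6, Ltb, Tnf and Lta are adjacent on chromosome 17 with 0 protein-coding genes between each neighbouring pair. Tnfsf9 and Tnfsf14 lie on the same chromosome with 1 gene, Cd70, between them, and Tnfsf15 and Tnfsf8 are adjacent on chromosome 4. In each of these 3 neighbourhoods 1 of the ligands among the 9 rose with LPS and the other was not called. Tnfsf4 and Tnfsf18, adjacent on chromosome 1, were both not called. Tnf and Lta both rose in WT cells: Lta, the soluble lymphotoxin, rose by 0.66 ± 0.170 (SE) in WT cells (limma adjusted p = 0.00513) and changed by 0.34 ± 0.170 in KO cells (adjusted p = 0.178). The difference in its response between genotypes, -0.32, was not called (adjusted p = 0.749). Cd70 changed by 0.13 in each genotype (adjusted p = 0.426 in KO cells and 0.334 in WT cells). Of the 7 measured ligands of the family outside the 9, Lta was the 1 that was called in WT cells, and 0 were called in KO cells, where 1 was called without unstimulated KO array 1.

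The comparison of genotypes asks whether loss of NFAT5 changes these ligands. Tnfsf10 was the 1 ligand called, lower in unstimulated KO cells, where 0.863% of all genes were lower and 1.0% were called in either direction. It averaged 5.92 ± 0.51 in KO cells against 7.03 ± 0.41 in WT cells (SD, n = 4), a difference of -1.11 ± 0.228 (SE), 2.16-fold (limma adjusted p = 0.02). The groups did not overlap, as for 4.33% of all genes (2.86% with KO lower). The KO array was therefore lower than the WT array in every pair of the same number, by differences of -2.47, -0.79, -0.72 and -0.46 for numbers 1 to 4. The call rested on both arrays numbered 1: it was lost without WT array 1 (-0.91, adjusted p = 0.0759) and without KO array 1 (-0.86, adjusted p = 0.0601). It was also lost in a fit of only the 8 unstimulated arrays (adjusted p = 0.112), with a term for sex (-0.79, adjusted p = 0.146) and in the 10 female arrays (-0.72, adjusted p = 0.373), where 1 KO array per treatment remained.

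With LPS the order was the opposite. Tnfsf10 averaged 9.40 ± 0.23 in KO cells against 8.80 ± 0.29 in WT cells, and every KO array was higher than every WT array, which held for 4.15% of all genes (3.59% had every KO array lower, 7.73% in all). In pairs of the same number the KO array was therefore higher, by 0.18, 1.03, 0.54 and 0.68. The difference of 0.61 ± 0.228 (SE; 95% interval 0.13 to 1.09) was not called (limma adjusted p = 0.236). Of the 9 ligands 0 were called in this comparison, against 3.05% of all genes (1.80% higher and 1.26% lower). At an unadjusted p under 0.05 there were 4 of the 9 (Tnf, Tnfsf9, Tnfsf10 and Tnfsf15), against 11.3% of all genes.

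The LPS response of Tnfsf10 was larger in KO cells than in WT cells by 1.72 ± 0.322 (SE; 95% interval 1.04 to 2.40), or 3.29-fold (limma adjusted p = 0.014). It was the 1 ligand of 9 called for a difference in response, and it ranked 69 by p among 19937 genes. Of all genes 1.29% were called, 0.988% with KO response minus WT response above 0 and 0.301% with it below 0. Values above 0 can include genes that LPS lowered less in KO cells. The Tnfsf10 call held without any single array, with differences from 1.47 to 1.85 and adjusted p up to 0.0342. With the sex term the difference was again 1.72 (adjusted p = 0.01), but that term could not move it. Each KO array had the same sex with and without LPS by number, so the term cancels out of this difference. A sex difference in the LPS response was not modelled. In the 10 female arrays the difference was 1.57 with adjusted p = 0.413. Some cell type markers were also called between genotypes. Of the 8 macrophage markers, Cd14 was lower in unstimulated KO cells (10.58 against 11.78 in WT cells) and had a larger LPS response in KO cells by 0.99, and Mertk was higher with LPS (9.77 in KO cells against 8.98 in WT cells). The summed linear level of these 8 was 49469 to 50167 in KO arrays with LPS and 47495 to 49379 in WT arrays with LPS, against 45806 to 49258 in unstimulated KO arrays and 50907 to 54455 in unstimulated WT arrays. Of the 7 T cell markers, Cd28 was higher with LPS (6.66 in KO cells against 5.92 in WT cells). Of the 5 dendritic cell markers, Itgax was lower with LPS (9.56 in KO cells against 11.39 in WT cells), and its difference in unstimulated cells (7.82 against 8.82) was not called. The other 4 were not called between genotypes in any comparison. The part of these markers in the Tnfsf10 result was not tested. Fewer cells of a type and less RNA per cell cannot be told apart in such bulk samples.

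The 3 genes with the highest Pearson correlation to it over the 16 arrays were Cmpk2 (r = 0.991), Mx1 (r = 0.991) and Parp12 (r = 0.989), all known as interferon-inducible, with Mx1 an antiviral GTPase. They were picked by r among all genes except predicted genes, clone names and small RNAs, and no list of interferon-inducible genes was tested. These values include the difference between arrays with and without LPS, and all genes of an array share its normalisation. After removing the group means, r was 0.864, 0.862 and 0.956. In unstimulated cells WT array 1 was the highest and KO array 1 the lowest of the 8 arrays for Tnfsf10 and for each of the 3 genes, with Mx1 at 6.30 in KO array 1 against 8.92 in WT array 1. Mx1 averaged 10.80 in KO cells with LPS and 10.36 in WT cells with LPS, against 7.13 in unstimulated KO cells and 8.37 in unstimulated WT cells. The part of interferon in the Tnfsf10 difference was not tested.

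**Figure D3:**
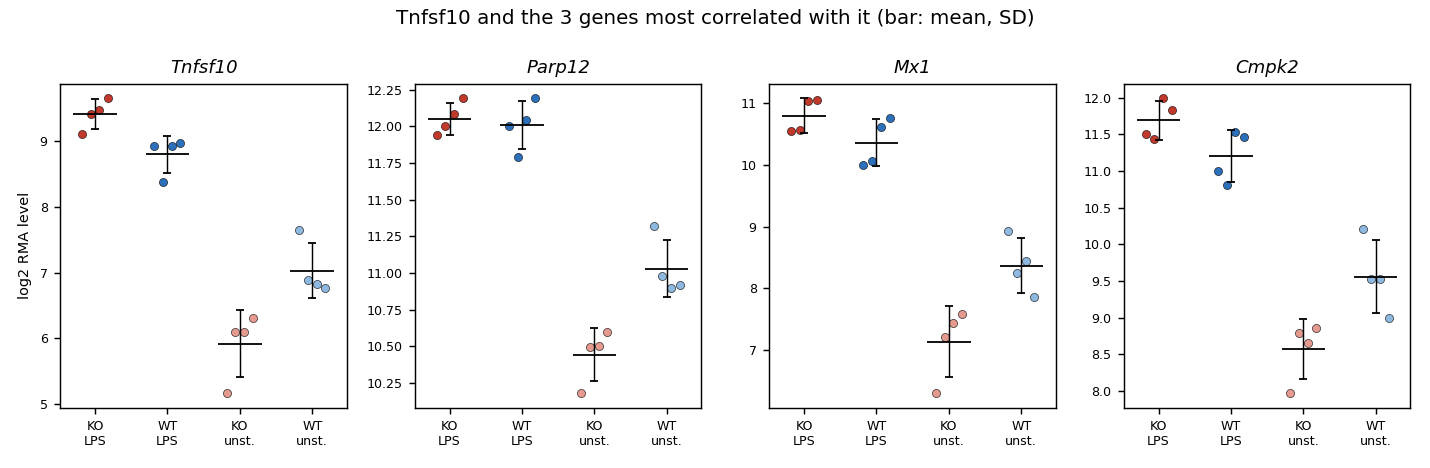
Log2 RMA level of Tnfsf10, Parp12, Mx1 and Cmpk2 in each array (points, arrays 1 to 4 of a group in order; bars, mean and SD; each panel has its own scale). In all 4 panels the lowest point is unstimulated KO array 1, and unstimulated WT array 1 is the highest point without LPS.

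Tnf was not called between genotypes in any of the 3 comparisons. In unstimulated cells the difference was -0.04 (95% interval -0.24 to 0.15, limma adjusted p = 0.959). With LPS it was -0.23 (95% interval -0.43 to -0.03, adjusted p = 0.294), and the groups overlapped. The KO array was lower in 4 of 4 pairs, by at most 0.43, but the share of all genes with such pairs was not counted. The LPS response differed by -0.19 (95% interval -0.46 to 0.09, adjusted p = 0.731). Tnfsf9 showed -0.31 unstimulated and -0.30 with LPS (adjusted p = 0.589 and 0.398), and its responses differed by 0.01 (95% interval -0.40 to 0.42). For Tnf and Tnfsf9 the intervals for the difference in response reached at most about 0.46 from 0 on the log2 scale. They reflect the spread among these arrays alone.

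Tnfsf15 averaged 8.53 ± 0.31 in KO cells with LPS against 9.08 ± 0.13 in WT cells with LPS (SD, n = 4). The difference of -0.55 ± 0.208 (SE) was not called (limma adjusted p = 0.245). With the array number as a block it was called (adjusted p = 0.0452). The groups overlapped by 1 array, KO array 2 at 8.97 against WT array 4 at 8.94. The pairs differed by -0.75, -0.05, -0.79 and -0.60. With the sex term the difference was -0.95 (adjusted p = 0.0367), and with sex term and block together -0.60 (adjusted p = 0.315). In unstimulated cells it was 0.01 (95% interval -0.43 to 0.45), and the LPS responses differed by -0.56 (95% interval -1.18 to 0.06, adjusted p = 0.567).

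Tnfsf13b, Ltb, Tnfsf14, Tnfsf4 and Tnfsf8 differed between genotypes by at most 0.14 in unstimulated cells and by at most 0.13 with LPS, in either direction, with adjusted p of 0.873 or more. Tnfsf14 was called with a sex term, higher in KO cells by 0.67 unstimulated (adjusted p = 0.0117) and 0.54 with LPS (adjusted p = 0.0259). That fit separates sex from genotype through the KO arrays numbered 4, which were its 2 highest arrays. On arrays numbered 1 to 3 the Tnfsf14 differences were -0.05 and -0.10 (adjusted p = 0.972 and 0.886).

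**Figure D4:**
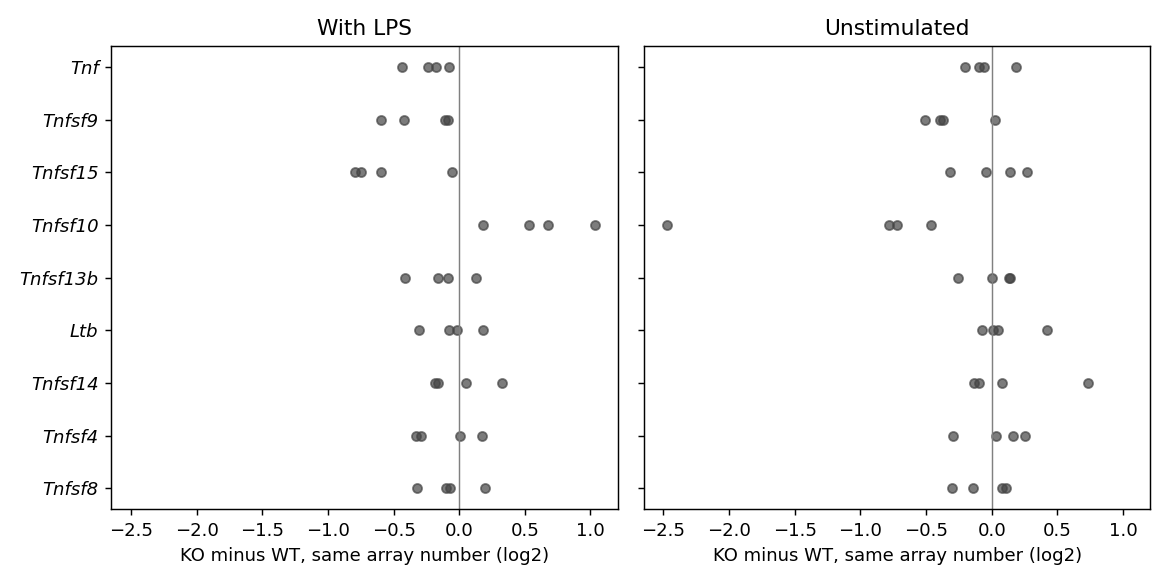
KO minus WT log2 difference between arrays of the same number for each ligand, with LPS (left) and unstimulated (right); each ligand has 4 points per panel. For Tnfsf10 all 4 points lie above 0 with LPS and below 0 without it, which follows from groups that do not overlap. For Tnf, Tnfsf9 and Tnfsf15 all 4 lie below 0 with LPS, but these differences were not called in the main fit. How many of all genes have 4 points on the same side was not counted.

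Of 28 measured receptors of the superfamily, LPS raised 6 and lowered 5 in KO cells, and raised 6 and lowered 6 in WT cells, or 11 and 12 called, against 24.7% of all genes in KO and 30.8% in WT cells. In the 10 female arrays 7 were called in KO cells. Tnfrsf1b, the TNF receptor lacking a death domain, rose by 0.97 in KO and 1.25 in WT cells, and Tnfrsf1a, the receptor with one, by 0.48 in KO cells (adjusted p = 0.00212) with 0.26 in WT cells (adjusted p = 0.0788). Tnfrsf9 and Tnfrsf25, the receptors of Tnfsf9 and Tnfsf15, were not called in either genotype. Of the receptors of Tnfsf10, the death receptor Tnfrsf10b rose by 1.26 in KO and 1.48 in WT cells. Tnfrsf23, a decoy receptor in mice, fell by 0.47 in KO and fell by 0.93 in WT cells, and Tnfrsf22, another decoy receptor, fell by 0.86 in WT cells and showed -0.37 in KO cells (adjusted p = 0.113). Tnfrsf14, the receptor of Tnfsf14, rose by 1.32 in KO and 1.13 in WT cells, while Ltbr was not called. Of the 28, Cd40 rose the most, by 4.28 in KO and 4.07 in WT cells, and Tnfrsf21 fell by 1.68 in KO cells and fell by 2.15 in WT cells.

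Between genotypes 1 of the 28 receptors was called in unstimulated cells and 2 with LPS, against 1.0% and 3.05% of all genes. Tnfrsf23 was lower in unstimulated KO cells, at 6.79 against 7.53 in WT cells (difference -0.75 ± 0.117 SE, limma adjusted p = 0.00217), so a decoy receptor of Tnfsf10 and the ligand itself were both lower there. With the array number as a block, 3 receptors were called in unstimulated cells. With LPS, Tnfrsf1b was lower in KO cells (difference -0.46, 12.52 against 12.98 in WT cells, adjusted p = 0.0115) and Tnfrsf21 higher by 0.62 (adjusted p = 0.00185). Without WT LPS array 2, 1 receptor was called with LPS, and 0 were called in the 10 female arrays. For the difference in response 0 of 28 were called.

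**Figure D5:**
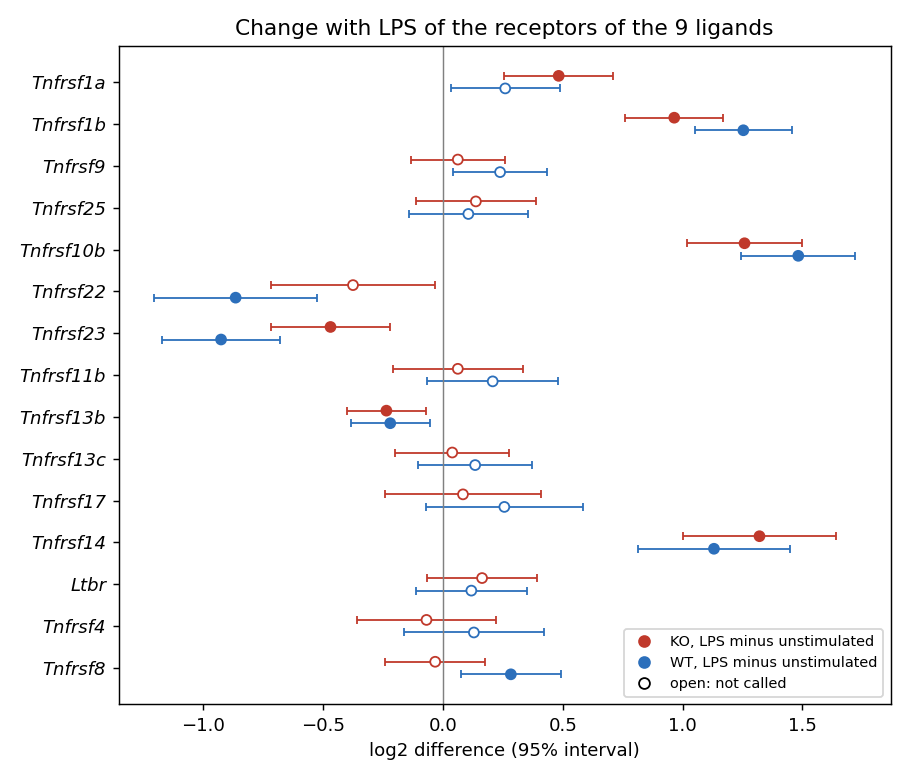
Log2 change with LPS of the 15 receptors of the 9 ligands in KO cells (red, upper of each pair) and WT cells (blue, lower), with 95% intervals; filled points were called. Tnfrsf10b, Tnfrsf1b and Tnfrsf14 lie right of 0 in both genotypes, and Tnfrsf23 lies left of 0 in both.

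Of 19 measured genes that control release and mRNA stability of TNF, 8 rose and 5 fell with LPS in KO cells, and 8 rose and 5 fell in WT cells, against 24.7% of all genes called in KO and 30.8% in WT cells. In the 10 female arrays 8 were called in KO cells. Adam17, the protease that cuts TNF from the membrane, rose by 0.67 in KO and 0.49 in WT cells, and Rhbdf2, its partner iRhom2, by 1.52 and 1.61. Zfp36, which promotes decay of Tnf mRNA, rose by 0.61 and 0.70, whereas its relatives Zfp36l1 and Zfp36l2 fell, with changes of -2.14 and -1.47 in KO cells and -3.20 and -2.54 in WT cells. Zc3h12a, an RNA-degrading enzyme known as Regnase-1, rose by 1.51 in KO and 1.97 in WT cells. In unstimulated cells 0 of the 19 were called between genotypes by limma, with 16 differences below 0 and the lowest at -0.75. Below 0 there were also 9705 of all 19937 genes, and 28 of the 31 signalling genes described next. With LPS Zc3h12a was lower in KO cells (-0.67, adjusted p = 0.000856) and Zfp36l2 higher by 0.89 (adjusted p = 0.00226), and 0 of the 19 were called there in the 10 female arrays. The response of Zfp36l2 differed by 1.07 ± 0.216 (SE, limma adjusted p = 0.0189), and on arrays numbered 1 to 3 and in the 10 female arrays 0 of the 19 were called for the response.

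Of 31 measured signalling genes downstream of the receptors, 15 rose and 3 fell in KO cells and 17 rose and 6 fell in WT cells, against 24.7% of all genes called in KO and 30.8% in WT cells. Traf1, an adaptor of these receptors, rose by 3.90 in KO and 3.14 in WT cells, and Tnfaip3, which encodes the feedback inhibitor A20, by 2.66 and 2.96. Traf1 was also lower in KO cells, with differences of -1.74 unstimulated (adjusted p = 2.41e-06) and -0.98 with LPS (adjusted p = 0.000946). In unstimulated cells it was the 1 gene of the 31 called, and with LPS 3 were lower and 1 was higher, against 1.0% and 3.05% of all genes. Beside Traf1, the lower ones were Tnip1, a partner of A20 (-0.38, adjusted p = 0.0189), and Tnfaip3 (-0.54, adjusted p = 0.0423), and the higher one was the deubiquitinase gene Cyld (0.46, adjusted p = 0.0258). That count of 4 fell to 1 without WT LPS array 1 or 2 or KO LPS array 3, and to 2 without WT LPS array 3 or KO LPS array 1, 2 or 4, and it was 0 in the 10 female arrays. Between genotypes the response of 0 of the 31 was called, and with the array number as a block 1 was. The 4 gene lists were chosen with earlier results of these arrays known.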

How the data were processed

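Total RNA of 16 macrophage samples was hybridised to 1-channel Affymetrix arrays with biotin label, per the labels' protocols. The values are log2 expression levels per probe set, made by the authors with RMA per the submitters' processing notes; no version of it is known here. RMA brings all arrays to 1 distribution, so a shift shared by all genes is removed. Probe sets with 1 platform gene (21640 of 34760) were used and the brightest per gene kept. All arrays entered 1 limma 3.58.1 model (R 4.3.3) with a mean per group and 12 residual degrees of freedom, and no filter on dim genes. P-values were adjusted over 19937 genes and the threshold was 0.05. Precision is limited by having 4 arrays per group. The procedure was tested on simulated data. Arrays of the same number deviated together in both genotype comparisons (r from 0.160 to 0.518, all over the minimum of 0.1), so numbers may pair KO and WT arrays. In the LPS comparisons number 1 gave 0.0454 in WT and -0.0602 in KO cells, under that minimum, while numbers 2 to 4 gave 0.138 to 0.558. Pairing by treatment was therefore left undecided. The main fit took no account of the number, and the fit with the array number as a block did. No 2 arrays of a group held identical values (SD of differences 0.172 or more), which does not tell technical replicates from separate cultures. Members, lists and markers were chosen with earlier results of these data known. Named were the 9 ligands, their receptors, up to 4 genes with the smallest p per list and comparison. Some or all of the 3 genes most correlated with each ligand were also named. Predicted genes, clone names and small RNAs were left out of the search for correlated genes. Genes named outside this rule (Adam17, Zfp36, Cd3e, Cd14, Cd28, Itgax, Mertk, Col1a1, Camp) were chosen after their values were seen. In the gene lists, 6 genes had no probe set with 1 platform gene and were not analysed here. Alternatives covered the probe set, dim-gene filters, 2 normalisations, the variance model, the array number as a block, a sex term from Xist against Kdm5d, subsets of arrays and leaving out each array.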

Additional observations from a re-analysis of the deposited data

Results flagged for a closer look

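The LPS response of Tnfsf10 differed between genotypes in a direct test. The difference was 1.72 on the log2 scale, larger in KO cells. Within groups of 4 arrays, 4 of the 36 ligand and group combinations had 1 array far from the other 3, where chance gives about 1 in 20. These were Tnfsf10 in unstimulated WT array 1 (7.64, high), Tnfsf10 in WT LPS array 2 (8.37, low), Tnfsf14 in unstimulated KO array 4 (6.53, high) and Tnfsf15 in unstimulated WT array 4 (6.66, low).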

How the results depend on the processing

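The LPS calls of Tnf, Tnfsf9, Tnfsf10 and Tnfsf15 kept direction and side of the threshold under every alternative that gave a value. Tnfsf13b did too, except in KO cells in the 10 arrays with Xist above Kdm5d (-0.49, adjusted p = 0.266). Probe set choice, dim-gene filters, variance model, block and sex term could not move the size of these LPS changes, only their adjusted p. Leaving out 1 array gave 5 to 6 called ligands for LPS in WT cells and 5 in KO cells. It gave 0 to 1 for genotype in unstimulated cells, 0 for genotype with LPS and 1 for the difference in response. For genotype in unstimulated cells, 0 ligands were called with only the arrays of the 2 groups, with the sex term and replicate block, and in the arrays with Xist above Kdm5d; with the sex term alone Tnfsf14 was called in place of Tnfsf10. For genotype with LPS, the replicate block gave 1 call, Tnfsf15 (adjusted p = 0.0452), and the sex term 2, Tnfsf14 and Tnfsf15, while both together gave 0. For the difference in response, the arrays with Xist above Kdm5d gave 0. The block changed no other call of a ligand. The filters on dim genes left out some of the dim ligands.

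Signs that turned belonged to differences that were not called (smallest adjusted p = 0.369). For the LPS change in WT cells, Tnfsf14 was -0.020 with median centring, -0.051 with quantile normalisation and -0.10 on arrays 1 to 3, and -0.076 to 0.052 leaving out 1 array. In KO cells Tnfsf4 was 0.015 with median centring and 0.13 in the arrays with Xist above Kdm5d, and leaving out 1 array gave -0.12 to 0.031 for Tnfsf4 and -0.32 to 0.034 for Tnfsf14. For genotype in unstimulated cells, median centring gave -0.032 (Tnfsf13b) and -0.023 (Tnfsf15), and quantile normalisation 0.026 (Tnf), -0.022 (Tnfsf13b) and -0.033 (Tnfsf15). The sex term gave 0.098 (Tnfsf8) and -0.39 (Tnfsf15), and with the block -0.14 (Tnfsf13b) and -0.042 (Tnfsf15). The arrays with Xist above Kdm5d gave 0.012 (Tnf), 0.21 (Tnfsf8) and -0.60 (Tnfsf15), and arrays 1 to 3 -0.031 (Tnfsf4), -0.051 (Tnfsf14) and -0.0048 (Ltb). Leaving out 1 array gave -0.016 to 0.15 (Tnfsf4), -0.17 to 0.0098 (Tnfsf8), -0.069 to 0.094 (Tnfsf13b), -0.024 to 0.21 (Tnfsf14) and -0.17 to 0.21 (Tnfsf15). For genotype with LPS, the sex term gave 0.070 (Tnfsf4), 0.091 (Tnfsf8) and 0.077 (Ltb), and with the block 0.14 (Tnfsf4) and 0.22 (Ltb). The arrays with Xist above Kdm5d gave 0.15 (Tnfsf4), 0.048 (Tnfsf13b) and 0.13 (Ltb), and arrays 1 to 3 gave 0.011 (Tnfsf8) and -0.099 (Tnfsf14). Leaving out 1 array gave -0.14 to 0.027 (Tnfsf8), -0.18 to 0.10 (Tnfsf14) and -0.12 to 0.0031 (Ltb). For the difference in response, Tnfsf8 was 0.060 with median centring, 0.064 with quantile normalisation and 0.13 on arrays 1 to 3, where Tnfsf9 was -0.12. The arrays with Xist above Kdm5d gave 0.012 (Tnfsf4) and 0.035 (Tnfsf13b), and leaving out 1 array -0.083 to 0.097 (Tnfsf8), -0.10 to 0.13 (Tnfsf9) and -0.32 to 0.030 (Tnfsf14). The causes were not tested.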

Other observations

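The genes most like the other ligands over the 16 arrays give a second description of each. Tnf was closest to Ptgs2, the inducible cyclooxygenase (r = 0.998), Plek (0.996) and Sod2, the mitochondrial superoxide dismutase (0.995), and within groups these r were 0.562, 0.534 and 0.278. Tnfsf9 was closest to Tnip1, an A20-binding protein (r = 0.996, and 0.801 within groups). Tnfsf15 was closest to Mak16 (0.964), Eif6 (0.963) and Slco3a1 (0.961). Tnfsf13b, the ligand that fell, was closest to Inpp5e (0.968), Gak (0.956) and Arid1b (0.952).

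The ligands that were not called for LPS had other company. Tnfsf8 was closest to the vomeronasal receptor gene Vmn1r29 (r = 0.922, and 0.929 within groups) and the olfactory receptor gene Olfr1199 (0.917 and 0.908), whose mean levels lay between 3.67 and 3.91 in all groups. Tnfsf14 was closest to the water channel gene Aqp4 (0.946) and to Dydc1 (0.907), both with group means between 5.50 and 5.66. Tnfsf4 was closest to Tekt3 (0.894) and Ltb to Igfbp5 (0.911). Such correlations over 16 arrays share the array, its normalisation and any spread of dim probe sets, and no test was made of them.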
